A study of Homo sapiens with 54 samples.

Results

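The cells described here are NCI-H460, a long-established human line of large cell lung carcinoma, harvested 24 h after a single dose of 6 Gy from a cesium-137 source. They were taken by sample title, which gave 3 arrays of irradiated cells and 3 arrays of untreated control cells of the same harvest time, out of 54 arrays in the series. Both groups had been moved to medium without serum 24 h before treatment began, and neither received nicotine, cigarette smoke extract or cisplatin. Other arrays of the series are used for 4 side comparisons. These are irradiated cells with 5 uM nicotine against nicotine alone, irradiated cells with smoke extract at 5 uM nicotine equivalent against the extract alone, both at 24 h and with the extract or nicotine added 2 h before irradiation, cells at 24 h after 1 uM cisplatin, and irradiated against control cells at 2 h. The labels call the 3 samples of a group biological replicates, and each was one well of cultured cells of a single line treated concurrently with the others, so the p-values describe the spread between such wells.

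Ionizing radiation breaks both strands of DNA. The kinase ATM then stabilizes the transcription factor p53, which NCI-H460 cells carry in its normal form, and p53 switches on genes that stop the cell cycle, start repair, limit reactive oxygen or prime cell death. One of these genes, CDKN1A, encodes the inhibitor p21, through which the DREAM complex of retinoblastoma-related proteins and MuvB proteins shuts genes of DNA replication and mitosis. Cells that stay arrested for days can enlarge, remodel their matrix contacts and lose lamin B1 and core histone expression, which is described for radiation in many cultured cells.

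Values are log2 levels, a base inferred from their range of 0.89 to 13.81, and probe sets of different genes cannot be set against each other. Irradiated replicate 3 stood apart from the other arrays of its group. Its Pearson correlation was 0.988 with replicates 1 and 2, which correlated at 0.994 with each other, and 0.988 to 0.990 with the control arrays. Over the called genes its change was 0.67 times the mean change of replicates 1 and 2 (a regression slope), and 46 genes were over 1 log2 unit higher in it than in the mean of those arrays, against 3 that were lower. Results are therefore also given without it. Families that this cell type should not express (459 olfactory, taste and vomeronasal receptor and keratin-associated genes) had a 95th percentile of 6.84 over the arrays, so that a level below 6.84 cannot be separated from background. Where every array of 1 group lay below it, a change is at best a lower bound, which among the genes named below holds for CCNE2, CDCA5, CLSPN, E2F8, H2AC25, H2AC8, H3C12, H4C4, ID1, POLQ, SNORA20 and SPC25 in irradiated cells and for ANKRD1, DSC3, GADD45A, NUPR1, SESN1, STC1, TIGAR and TP53INP1 in control cells. For MIR15A, TRIM22 and VTRNA1-1 both groups lay below it. Of 8 epithelial markers measured, the simple epithelial keratin genes KRT8, KRT18 and KRT19 were at high levels in all 6 arrays. Another such keratin gene, KRT7, was near 6.84, with means of 7.20 in irradiated and 7.18 in control cells. So were CLDN4 (7.04 and 7.03) and CLDN7 (6.88 and 6.76), whereas the epithelial adhesion genes EPCAM and CDH1 were below 6.84. Of the leukocyte, fibroblast and endothelial markers, 8 of 9, 6 of 9 and 7 of 8 lay below 6.84, and PDGFRB was the only one called (0.54 ± 0.08).

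Radiation changed 3875 of 18417 genes 24 h later (21.0% of those tested, limma, adjusted p under 0.05), 1850 upward (10.0%) and 2025 downward (11.0%). The balance of directions turned with the scaling between arrays, with 2476 upward and 1941 downward after quantile scaling and 2588 and 2211 with the silent families as a covariate. The median log2 change over all genes was 0.03. Among the called genes 818 changed over 1.5-fold (4.44% of those tested), 220 upward (1.19%) and 598 downward (3.25%), so the larger changes were mostly falls. Over 2-fold there were 28 rises and 131 falls, and over 4-fold 0 rises and 14 falls. The 3 irradiated and 3 control values did not overlap for 6416 genes (34.8%), and 3659 of these were called (19.9%). Without irradiated replicate 3, 4250 genes were called (23.1%), of which 3482 were among the 3875 and in the same direction. Since whole wells were measured, fewer cells in a phase of the cycle and less RNA per cell cannot be told apart in any of the changes below.

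The largest rise belonged to TP53INP1, whose product carries a stress signal back to p53. Its log2 level was 8.44, 8.52 and 8.83 in irradiated cells, against 6.79, 6.58 and 6.65 in control cells, which is a change of 1.93 ± 0.14 (SE of the fit) or 3.80-fold (adjusted p = 9.53e-15). The second largest, SULF2, encodes a secreted sulfatase that trims heparan sulfate, and its levels were 8.68, 8.87 and 8.80 in irradiated cells, against 6.96, 6.85 and 7.10 in control cells. ACTA2, the smooth muscle actin gene and a p53 target in some cells, stood at 9.96, 9.77 and 9.82 in irradiated cells, against 8.23, 8.26 and 8.25 in control cells. The desmosomal cadherin gene DSC3 read 7.17, 7.44 and 7.31 in irradiated cells, against 5.60, 5.72 and 5.88 in control cells. The largest rises and falls were ranked only among called genes whose groups did not overlap, so the separation of these 4 genes was set by that choice. Irradiated replicate 3 was never their lowest irradiated array. Of the 6 deepest falls 4 were in core and linker histone genes. H3C12, a histone H3 gene, was at 6.26, 6.20 and 6.40 in irradiated cells, against 9.44, 9.35 and 9.14 in control cells, a change of -3.02 ± 0.13. H2BC14, a histone H2B gene, was at 9.29, 9.18 and 9.23 in irradiated cells, against 12.19, 12.22 and 12.19 in control cells, which is 7.82-fold lower (adjusted p = 9.71e-28). The linker histone gene H1-5 was at 6.66, 6.39 and 7.15 in irradiated cells, against 9.65, 9.61 and 9.46 in control cells. Groups were separate by over 2 log2 units in all 3 histone genes.

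**Figure D1:**
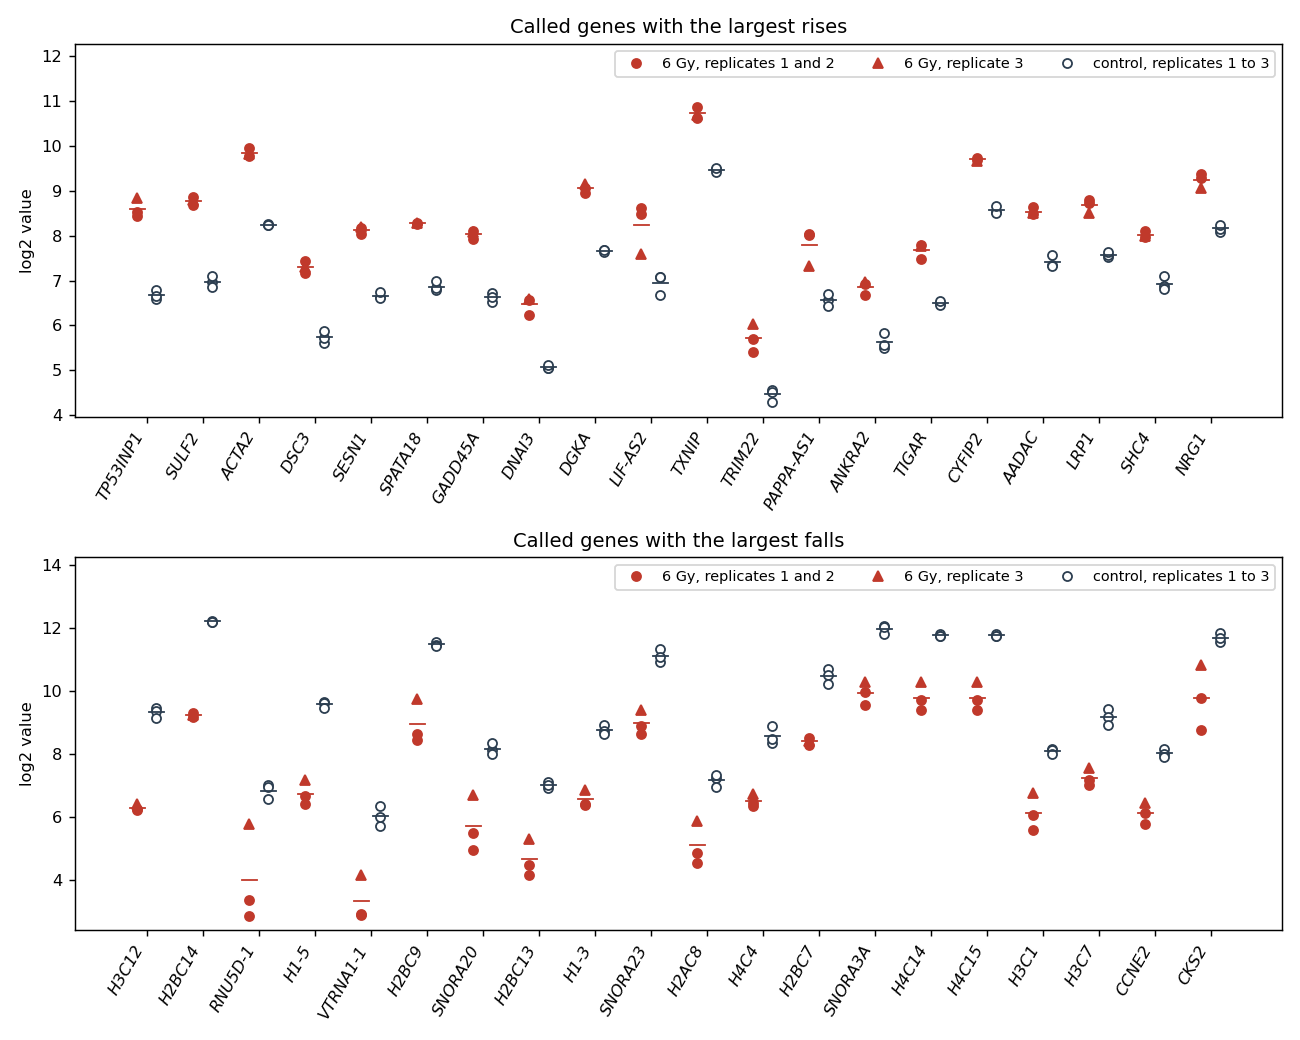
Log2 levels on each array for the 20 rising genes (upper panel) and the 20 falling genes (lower panel) with the largest changes among called genes whose groups did not overlap. Filled red symbols are the 3 irradiated arrays (triangles, replicate 3), open symbols the 3 control arrays, and short lines the group means. Among the falling genes the triangle often lies above both circles, as for H2BC9 and CKS2, while rises such as SPATA18 and CYFIP2 are nearly the same on all 3 irradiated arrays.

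Direct targets of p53 rose in number. Of 92 measured members of 6 lists of such targets, with genes on 2 lists counted once, 53 rose and 3 fell, with a median log2 change of 0.36, against 10.0% higher and a median of 0.03 over all genes. The median was 0.36, 0.37 and 0.41 on irradiated replicates 1, 2 and 3 (each minus the mean of the controls), so the third array did not lag here, and without it 50 rose (11.0% of all genes did then) and 3 fell. Feedback genes came first. MDM2, whose product marks p53 for destruction, was at 10.87, 10.80 and 11.15 in irradiated cells, against 10.19, 9.97 and 9.98 in control cells. PPM1D, a phosphatase that switches the damage signal off, was at 9.18, 9.13 and 9.15 in irradiated cells, against 8.27, 8.42 and 8.46 in control cells. PHLDA3, an inhibitor of AKT signalling, rose by 0.75 ± 0.08 and CCNG1, a cyclin that recruits a phosphatase to MDM2, by 0.50 ± 0.06. None of these 4 genes had an irradiated value within the control range. The list of feedback genes held 7 rising members of 13, and 0 falling ones.

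Among cell cycle brakes, 6 of 12 rose and 1 fell, where 10.0% of all genes rose and 11.0% fell. GADD45A, which blocks CDK1 and aids repair, was at 8.12, 7.92 and 8.08 in irradiated cells, against 6.73, 6.52 and 6.63 in control cells. CDKN1A itself was at 8.93, 8.97 and 9.84 in irradiated cells, against 8.35, 8.48 and 8.61 in control cells, with replicate 3 almost 0.9 log2 units above the other irradiated arrays. Its change was 0.77 ± 0.16 (adjusted p = 0.000201) and 0.47 without that array, where it was still called (adjusted p = 0.0133). The cyclin gene CCNG2, which is high in resting cells, rose by 0.81 ± 0.11, and the stress kinase genes PLK2 and PLK3 rose by 0.64 ± 0.09 and 0.56 ± 0.09. The falling member was SFN (-0.43 ± 0.09), which encodes the 14-3-3 sigma protein that holds CDK1 in the cytoplasm. Of 7 CDK inhibitor genes 2 rose and 1 fell, too few to set apart from the 10.0% and 11.0% of all genes. Those that rose were CDKN1A and CDKN1B (0.47 ± 0.12), the gene of p27. CDKN3 fell by 1.07 ± 0.19, and it encodes a phosphatase whose level peaks in dividing cells.

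p53 also switches on genes of death signalling. Of 15 such p53 targets 7 rose and 0 fell, against 10.0% and 11.0% of all genes, with a median of 0.31. The death receptor gene FAS was at 8.47, 8.59 and 8.83 in irradiated cells, against 7.52, 7.52 and 7.70 in control cells, 2.07-fold higher (adjusted p = 1.66e-10). BAX, which opens the mitochondrial outer membrane, was at 9.49, 9.58 and 9.36 in irradiated cells, against 9.03, 9.04 and 9.07 in control cells. The redox enzyme gene TP53I3 rose by 0.62 ± 0.07, and TNFRSF10D, a decoy receptor for TRAIL, rose by 0.40 ± 0.07. The BH3-only genes BBC3 and PMAIP1 were not called. BBC3, which encodes PUMA, had levels of 7.60, 7.47 and 7.38 in irradiated cells, against 7.36, 7.59 and 7.26 in control cells, which overlap. PMAIP1, which encodes NOXA, read 6.78, 6.90 and 7.85 in irradiated cells, against 7.43, 7.37 and 7.59 in control cells. The secreted factor gene GDF15, a common marker of p53 activity, read 9.60, 9.63 and 11.04 in irradiated cells, against 9.73, 9.66 and 9.70 in control cells. For both PMAIP1 and GDF15 irradiated replicate 3 was at least 0.9 log2 units above the other irradiated arrays, whose GDF15 levels were all below the lowest control.

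In p53 targets of metabolism and autophagy 11 of 16 rose and 0 fell, against 10.0% and 11.0% of all genes. All 3 sestrin genes, whose products restrain the growth kinase mTORC1, were among them. SESN1 was at 8.05, 8.17 and 8.19 in irradiated cells, against 6.63, 6.62 and 6.74 in control cells. SESN2 was at 8.49, 8.34 and 8.18 in irradiated cells, against 7.33, 7.25 and 7.43 in control cells, and SESN3 at 9.44, 9.74 and 9.72 in irradiated cells, against 8.67, 8.67 and 8.83 in control cells. TIGAR, a phosphatase that diverts glucose into the pentose phosphate path, rose 2.27-fold, and DRAM1, a lysosomal membrane protein of autophagy, rose 1.77-fold. SAT1, which acetylates polyamines, rose by 0.62 ± 0.11. No array of the sestrins, TIGAR or DRAM1 crossed between groups. Of 8 p53 targets of repair, 5 rose. DDB2 and XPC, which find ultraviolet and bulky lesions for nucleotide excision repair, rose by 1.05 ± 0.09 and 0.95 ± 0.11. POLH, a polymerase that copies across lesions, rose by 0.55 ± 0.09 and RRM2B, the ribonucleotide reductase subunit of resting cells, by 0.68 ± 0.17. The one that fell was PCNA (-0.46 ± 0.11), the sliding clamp of replication.

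Of 30 further targets 19 rose and 1 fell, against 10.0% and 11.0% of all genes. SPATA18, which acts in the repair or removal of mitochondria, was at 8.29, 8.27 and 8.29 in irradiated cells, against 6.79, 6.82 and 6.98 in control cells. CYFIP2, a regulator of actin branching, was at 9.73, 9.70 and 9.67 in irradiated cells, against 8.54, 8.51 and 8.67 in control cells, a change of 1.13 ± 0.07 (adjusted p = 1.71e-16). The semaphorin receptor gene PLXNB2 rose 2.12-fold and TRIM22, an interferon-linked ubiquitin ligase, rose 2.38-fold, with levels below 6.84 in both groups. Of 8 microRNA genes of the p53 response 0 rose and 1 fell, near the 10.0% and 11.0% of all genes. The falling one was MIR15A (-0.94 ± 0.18), with levels below 6.84 in both groups. An array of this kind reads fragments of long and precursor transcripts, so mature microRNA was not measured.

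**Figure D2:**
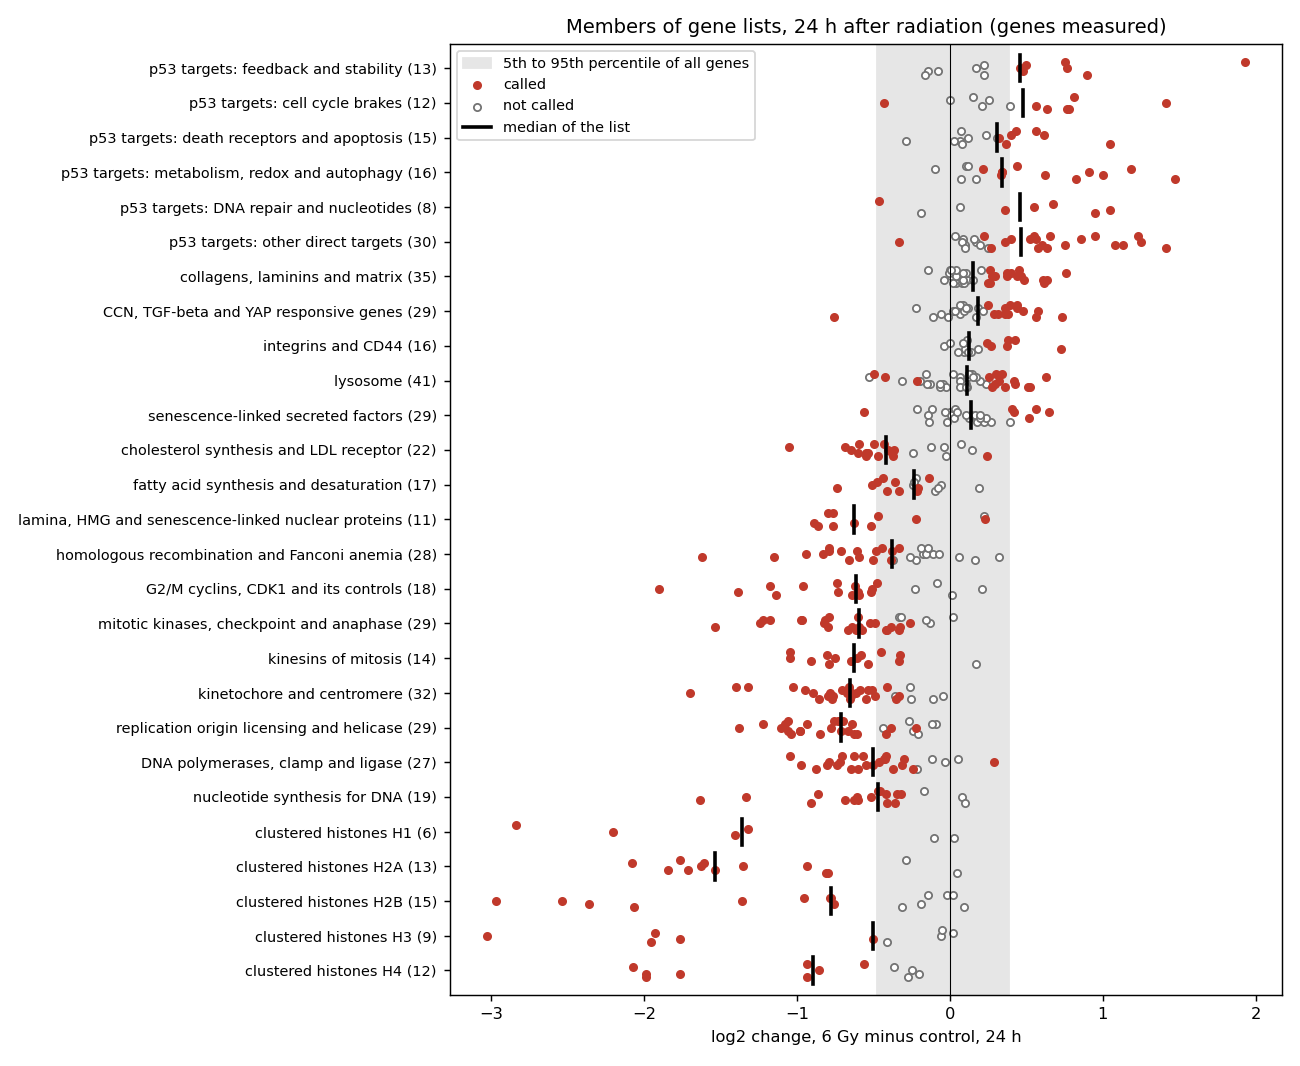
Log2 change (irradiated minus control, 24 h) of each measured member of 27 gene lists, with the number of measured members in parentheses. Filled red dots are called genes, open dots are not called, black bars are list medians, and the grey band spans the 5th to 95th percentile of all 18417 genes. The p53 target lists lie to the right with medians from 0.31 to 0.48, and every list of mitosis, replication and clustered histones has its median below 0.

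The G1/S machinery fell in part. Of 25 cyclins, CDKs and E2F factors 13 fell (11.0% of all genes) and 4 rose (10.0% of all genes), or 2 without control replicate 2. CCNE2, the cyclin that starts S phase with CDK2, was at 6.10, 5.76 and 6.44 in irradiated cells, against 8.16, 7.98 and 7.89 in control cells. CDK2 was at 8.33, 8.27 and 8.57 in irradiated cells, against 9.59, 9.33 and 9.44 in control cells. E2F8, a repressor of the E2F family that is itself an E2F target, read 6.56, 6.43 and 6.31 in irradiated cells, against 7.47, 7.47 and 7.38 in control cells. Groups were apart in all 3. The phosphatase gene CDC25A and the ubiquitin ligase gene SKP2, which remove brakes on CDK2, fell by 0.74 ± 0.10 and 0.74 ± 0.06, and CDK4 fell by 0.57 ± 0.08. RBL2, which encodes the p130 protein that assembles DREAM in resting cells, rose by 0.42 ± 0.10.

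Genes of mitosis fell almost as a body. Over 5 lists with 113 measured members 88 fell (11.0% of all genes did) and 1 rose, with a median log2 change of -0.60. The medians of single irradiated arrays were -0.62, -0.71 and -0.47, and without replicate 3 90 fell (12.1% of all genes did then) and 2 rose. AURKB, the kinase that corrects spindle attachments, was at 8.05, 7.78 and 7.98 in irradiated cells, against 9.43, 9.43 and 9.57 in control cells (2.90-fold lower, adjusted p = 6.59e-20). CCNA2, the cyclin of S phase and G2, was at 8.42, 8.46 and 8.46 in irradiated cells, against 9.69, 9.57 and 9.49 in control cells. The proliferation antigen gene MKI67 was at 8.94, 8.97 and 9.15 in irradiated cells, against 10.16, 10.17 and 10.22 in control cells. In these 3 genes the arrays of a group lay within 0.3 log2 units of each other and the groups were over 0.9 units apart. CKS1B and CKS2, small adaptors of CDKs, fell by 1.38 ± 0.15 and 1.90 ± 0.29. For CKS2 the irradiated arrays were far apart, at 9.76, 8.74 and 10.82, though all below the controls. FBXO5, the inhibitor of the anaphase-promoting complex, fell by 1.18 ± 0.09, whereas the classical mitotic pair CDK1 and CCNB1 fell by 0.74 ± 0.18 and 0.51 ± 0.12.

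Within mitosis, 24 of 29 kinases and anaphase genes, 13 of 14 kinesins, 27 of 32 kinetochore and centromere genes and 11 of 21 condensin, cohesin and topoisomerase II genes fell. Over all genes 11.0% fell. SPC25, a subunit of the NDC80 complex that grips microtubules, was at 5.60, 5.58 and 6.17 in irradiated cells, against 7.83, 7.32 and 7.31 in control cells, a change of -1.70 ± 0.17. HJURP, which loads the centromeric histone CENP-A, was at 8.79, 8.54 and 9.13 in irradiated cells, against 10.18, 10.08 and 10.17 in control cells. The securin gene PTTG1 fell by 1.24 ± 0.10, the separase gene ESPL1 by 0.97 ± 0.09, the kinase gene MELK by 1.22 ± 0.12 and the cohesin protector CDCA5 by 1.05 ± 0.10. KIF15 fell by 1.04 ± 0.14, KIFC1 by 0.91 ± 0.11, KIF14 by 0.80 ± 0.10, KIF23 by 0.79 ± 0.11, KIF20A by 0.75 ± 0.08 and KIF11, the bipolar spindle motor, by 0.61 ± 0.12. TOP2A, which untangles chromosomes, fell by 0.27 ± 0.07, at 10.20, 10.08 and 10.11 in irradiated cells, against 10.52, 10.34 and 10.36 in control cells. The groups did not overlap.

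Genes of DNA replication fell to a like extent, 61 of 75 with 1 rising and a median of -0.60. Over all genes 11.0% fell and 10.0% rose. Here the third irradiated array was close to the others, with medians of -0.56, -0.64 and -0.50, and without it 60 fell. Of 29 licensing and helicase genes 23 fell. MCM3, part of the ring that unwinds DNA, was at 8.18, 8.03 and 8.16 in irradiated cells, against 9.20, 9.04 and 9.23 in control cells. CDC45, its activator at the fork, was at 7.66, 7.65 and 7.78 in irradiated cells, against 8.75, 8.69 and 8.82 in control cells. GINS2, CDC6, MCM10 and the fork protector CLSPN fell by 1.23 ± 0.12, 0.71 ± 0.10, 0.85 ± 0.10 and 1.38 ± 0.19. Polymerases and clamp loaders fell in 22 of 27 cases, among them POLE2 (-1.04 ± 0.13), PRIM1 (-0.79 ± 0.13) and RFC3 (-0.87 ± 0.13).

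Supply of nucleotides fell as well, in 16 of 19 genes, where 11.0% of all genes fell. RRM2, the S-phase subunit of ribonucleotide reductase, was at 8.02, 7.74 and 7.97 in irradiated cells, against 9.67, 9.56 and 9.40 in control cells, which is 3.11-fold lower (adjusted p = 2.05e-16). SLC29A1, the nucleoside carrier of the plasma membrane, was at 8.31, 8.16 and 8.28 in irradiated cells, against 9.58, 9.56 and 9.60 in control cells. The groups were over 1 log2 unit apart in both. Salvage kinase genes TK1, DCK and DTYMK fell by 0.86 ± 0.15, 0.69 ± 0.13 and 0.63 ± 0.08. The thymidylate synthase gene TYMS was not called, at 9.90, 9.86 and 10.02 in irradiated cells, against 9.89, 9.81 and 9.84 in control cells. Chromatin assembly genes followed replication, with 15 of 22 falling. ASF1B, a chaperone that hands histones to the fork, was at 7.72, 7.86 and 8.02 in irradiated cells, against 9.43, 9.44 and 9.51 in control cells. UHRF1, which directs DNA methylation to new strands, fell by 1.24 ± 0.09, HELLS, a remodeller, by 0.88 ± 0.16, CHAF1B by 0.75 ± 0.09, and EZH2, the H3K27 methyltransferase, by 0.52 ± 0.07.

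Promoter sequences are shown for 5 of the falling genes as examples, beside the shares of short motifs in some of the lists. The 5 were not drawn at random and need not be typical of their lists. Motif shares were not counted for the chromatin assembly list, which holds ASF1B. The motifs searched, on both strands, were TTTGAA (the CHR element, through which DREAM and MuvB bind), CCAAT (the NF-Y box), TTTGGCGC or TTTCGCGC (an E2F site) and TATAAA (the TATA box), and none of these letter strings contains another. The RefSeq table (GRCh38.p14) gave 250 bases before and 50 after each start for 94 of 113 mitosis genes, 66 of 75 replication genes and 50 of 55 clustered histone genes, some with several starts. TTTGAA was in 61 of 124 promoters of mitosis genes (49.2%), 6 of 92 of replication genes (6.52%) and 15.2% of all 35116 promoters. An E2F site was in 23.1% of promoters of histone genes, 17.4% of replication genes, 4.84% of mitosis genes and 403 of 35116 of all. CCAAT was in 86.5% of promoters of histone genes, 61.3% of mitosis genes, 50.0% of replication genes and 34.6% of all. TATAAA was in 69.2% of promoters of histone genes and 11.5% of all. Promoters of p53 targets held TTTGAA in 15.8% and CCAAT in 35.1%, close to all promoters. A match is a run of letters and no evidence of binding. The 5 sequences run 5′ to 3′ from 250 bases before to 20 after the start, with every match of these motifs on either strand in capitals. SPC25 (chr2:168890411-168890680 (minus strand)) and ASF1B (chr19:14136570-14136839 (minus strand)) show CHR and CCAAT together, MCM3 (chr6:52284723-52284992 (minus strand)) and CDC6 (chr17:40287629-40287898 (plus strand)) an E2F site near the start with 3 CCAAT matches each, and H2BC14 (chr6:27814772-27815041 (plus strand)) 5 CCAAT matches.
SPC25: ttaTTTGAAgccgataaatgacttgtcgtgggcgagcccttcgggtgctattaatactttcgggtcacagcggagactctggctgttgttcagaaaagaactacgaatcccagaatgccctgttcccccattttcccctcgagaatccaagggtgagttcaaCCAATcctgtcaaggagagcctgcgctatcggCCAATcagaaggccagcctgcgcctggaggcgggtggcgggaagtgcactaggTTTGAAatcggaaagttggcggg
ASF1B: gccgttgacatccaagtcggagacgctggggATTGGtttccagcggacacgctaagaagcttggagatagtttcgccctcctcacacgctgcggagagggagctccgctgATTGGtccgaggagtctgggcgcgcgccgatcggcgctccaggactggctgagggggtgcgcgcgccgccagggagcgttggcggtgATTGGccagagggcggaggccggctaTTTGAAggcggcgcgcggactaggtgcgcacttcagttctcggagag
MCM3: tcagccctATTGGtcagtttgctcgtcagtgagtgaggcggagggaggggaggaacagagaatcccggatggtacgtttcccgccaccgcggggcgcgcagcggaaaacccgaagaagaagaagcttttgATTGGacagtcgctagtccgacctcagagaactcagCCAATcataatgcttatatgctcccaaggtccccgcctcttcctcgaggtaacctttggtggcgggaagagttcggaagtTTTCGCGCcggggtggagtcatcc
CDC6: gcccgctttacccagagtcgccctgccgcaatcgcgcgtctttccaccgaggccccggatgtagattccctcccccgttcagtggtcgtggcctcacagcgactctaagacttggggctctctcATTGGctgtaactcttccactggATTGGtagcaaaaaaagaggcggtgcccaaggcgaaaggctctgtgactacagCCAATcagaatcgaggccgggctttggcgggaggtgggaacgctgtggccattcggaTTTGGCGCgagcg
H2BC14: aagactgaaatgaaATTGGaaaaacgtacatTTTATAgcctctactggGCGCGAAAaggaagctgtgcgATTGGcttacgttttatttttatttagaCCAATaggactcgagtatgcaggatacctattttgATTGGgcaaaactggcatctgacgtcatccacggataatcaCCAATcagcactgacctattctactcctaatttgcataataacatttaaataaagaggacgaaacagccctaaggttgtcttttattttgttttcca

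Histone genes of the chromosome clusters are made in S phase and end in a stem loop in place of a poly(A) tail. They fell in 37 of 55 cases (11.0% of all genes did) and rose in 0, with a median of -0.94. By family, 4 of 6 H1, 11 of 13 H2A, 9 of 15 H2B, 5 of 9 H3 and 8 of 12 H4 genes fell. Members of a family are near-identical in sequence and can share probes, so single members are uncertain, and H4C14 and H4C15 had identical values. H4C4 was at 6.42, 6.35 and 6.72 in irradiated cells, against 8.88, 8.35 and 8.48 in control cells. H2BC7 was at 8.51, 8.29 and 8.40 in irradiated cells, against 10.68, 10.50 and 10.21 in control cells. H2BC9 was at 8.44, 8.63 and 9.74 in irradiated cells, against 11.56, 11.44 and 11.43 in control cells, with irradiated replicate 3 over 1 log2 unit above the other irradiated arrays. In all 3 genes the groups stayed apart. The linker genes H1-3, H1-2 and H1-4 fell by 2.21 ± 0.18, 1.40 ± 0.16 and 1.32 ± 0.20, and the H2A genes H2AC8 and H2AC20 by 2.08 ± 0.19 and 1.71 ± 0.19. Among the H2B genes, H2BC12 (0.09 ± 0.11) and H2BC21 (0.02 ± 0.15) were not called. The list medians were -1.03, -1.27 and -0.83 on single irradiated arrays, and without replicate 3 38 genes fell.

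SLBP, which binds the stem loop of these RNAs, fell by 0.49 ± 0.09, and H2AZ1, a replacement histone, by 0.83 ± 0.11. Nuclear envelope and high-mobility-group genes linked to senescence fell in 9 of 11 cases, where 11.0% of all genes fell. In this list 1 gene rose, or 2 without irradiated replicate 3. That one was LMNA, the lamin A gene (0.23 ± 0.08), whose call was lost without irradiated replicate 1 (0.21, adjusted p = 0.0943), irradiated replicate 2 (0.20, adjusted p = 0.117) or control replicate 1 (0.20, adjusted p = 0.115). LMNB1, the lamin B1 gene whose loss is used as a mark of senescence, was at 7.38, 7.43 and 7.50 in irradiated cells, against 8.22, 8.19 and 8.19 in control cells, 1.70-fold lower (adjusted p = 1.68e-10) with separate groups. LMNB2 fell by 0.63 ± 0.08, the lamin B receptor gene LBR by 0.47 ± 0.09, the lamina-associated gene TMPO by 0.77 ± 0.09, HMGB2 by 0.89 ± 0.14 and the spindle protein gene NUSAP1 by 0.86 ± 0.11. Of 29 secreted factors of senescent cells measured, 5 rose (10.0% of all genes did), or 8 without irradiated replicate 3, and 1 fell. PLAU, the urokinase gene, was at 8.59, 8.68 and 8.51 in irradiated cells, against 8.05, 7.91 and 7.87 in control cells, and TIMP2, STC1, CSF1 and IGFBP7 rose by 0.56 ± 0.11, 0.52 ± 0.11, 0.42 ± 0.09 and 0.40 ± 0.08. The one that fell was CXCL8, the neutrophil chemokine, at 10.14, 10.22 and 10.47 in irradiated cells, against 10.87, 10.74 and 10.90 in control cells.

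Genes of homologous recombination and the Fanconi pathway, which repair breaks and crosslinks in S phase and G2, fell in 16 of 28 cases and rose in 0, where 11.0% of all genes fell and 10.0% rose. UBE2T, the E2 enzyme of FANCD2 ubiquitylation, was at 8.39, 8.49 and 9.37 in irradiated cells, against 10.43, 10.33 and 10.36 in control cells. BRCA1 was at 7.59, 7.49 and 7.91 in irradiated cells, against 8.35, 8.19 and 8.42 in control cells. Both had all irradiated arrays below the controls, with replicate 3 the highest of the irradiated. XRCC2 and the helicase gene BLM fell by 0.94 ± 0.11 and 0.83 ± 0.10. Checkpoint kinases and end joining showed 10 falls among 25 genes, and 4 without control replicate 1. PARP2 and POLQ, the polymerase of microhomology-mediated joining, fell by 0.69 ± 0.11 and 0.63 ± 0.14, and RAD50 rose by 0.43 ± 0.12. Base, nucleotide and mismatch repair fell in 7 of 26 cases, where 11.0% of all genes fell. The 2 that rose, a share near the 10.0% of all genes, were the p53 targets DDB2 and XPC. UNG, which removes uracil from DNA, fell most, at 7.17, 7.05 and 7.16 in irradiated cells, against 8.15, 8.04 and 8.18 in control cells.

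Lipid synthesis genes fell together, where 11.0% of all genes fell and 10.0% rose. Of 22 genes of cholesterol synthesis and uptake 15 fell and 1 rose, with a median of -0.42 and medians of -0.48, -0.46 and -0.39 on single irradiated arrays. HMGCS1, which makes HMG-CoA for the mevalonate path, was at 9.31, 9.48 and 9.42 in irradiated cells, against 9.98, 9.91 and 9.92 in control cells. EBP, a late sterol isomerase, was at 8.35, 8.43 and 8.92 in irradiated cells, against 9.75, 9.55 and 9.56 in control cells. LSS, MVK, FDPS and the feedback gene INSIG1 fell by 0.68 ± 0.08, 0.65 ± 0.08, 0.60 ± 0.08 and 0.55 ± 0.08. Fatty acid synthesis fell in 10 of 17 cases and rose in 0. FASN, the fatty acid synthase, was at 10.17, 10.18 and 9.82 in irradiated cells, against 10.48, 10.63 and 10.60 in control cells. The elongase gene ELOVL6 fell by 0.74 ± 0.10, the citrate lyase gene ACLY by 0.48 ± 0.06 and the desaturase gene FADS1 by 0.41 ± 0.05. Falls over 1.5-fold were called for 5 of the 22 cholesterol genes, EBP the deepest (-1.05), and 1 of the 17 fatty acid genes. Irradiated and control arrays of EBP, HMGCS1 and FASN did not overlap.

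Genes of the cell surface and matrix also rose. Of 35 collagen, laminin and matrix genes 16 rose (10.0% of all genes did) and 0 fell. The fibrillar collagen gene COL5A2 was at 11.27, 11.36 and 11.06 in irradiated cells, against 10.48, 10.44 and 10.49 in control cells. LAMC1, the common laminin gamma chain, was at 11.72, 11.71 and 11.66 in irradiated cells, against 11.26, 11.23 and 11.25 in control cells. COL4A6, FBN1, LAMB1 and LAMA1 rose by 0.64 ± 0.08, 0.61 ± 0.11, 0.48 ± 0.07 and 0.44 ± 0.07. The 9 fibroblast markers, of which 6 lay below 6.84, had a summed linear level of 743 to 818 in irradiated cells. In control cells it was 690 to 731. PDGFRB was the only one of the 9 called (0.54 ± 0.08). The part of this sum in the rises of matrix genes was not tested. Integrin genes rose in 6 of 16 cases, with ITGA3 (0.72 ± 0.10), ITGB8 (0.43 ± 0.09) and the laminin receptor gene ITGA6 (0.38 ± 0.08) in front. Desmosome and junction genes rose in 6 of 22 cases, with a list median of 0.04, near that of all genes. Besides DSC3 they included DSC2, PKP2, JUP and DSG2 (0.62 ± 0.08, 0.46 ± 0.10, 0.39 ± 0.09 and 0.39 ± 0.08 higher). Of 20 heparan sulfate genes 5 rose and 4 fell, against 10.0% and 11.0% of all genes, with a median of 0.07. The falls numbered 1 without control replicate 2 and 2 without irradiated replicate 1. Besides SULF2, the syndecan gene SDC2 was higher by 0.77 ± 0.08, and the glypican gene GPC1 fell by 0.44 ± 0.10. Of 24 contractile and actin-bound genes 4 rose, ACTA2 the most, or 2 without control replicate 2 or irradiated replicate 3, and 4 fell. Both counts are near the 10.0% and 11.0% of all genes. CNN2 fell by 0.52 ± 0.09 and the cytoplasmic actin genes ACTG1 and ACTB by 0.29 ± 0.05 and 0.27 ± 0.05.

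Growth factor genes were among the rises. Of 29 genes responsive to TGF-beta or YAP 13 rose and 1 fell, where 10.0% of all genes rose and 11.0% fell. TGFB2, the ligand, was at 11.39, 11.44 and 11.36 in irradiated cells, against 10.95, 10.96 and 10.98 in control cells. Its receptor gene TGFBR1 and the signal carrier SMAD3 rose by 0.48 ± 0.09 and 0.56 ± 0.11, and the YAP target ANKRD1 by 0.73 ± 0.13. The falling member was ID1 (-0.76 ± 0.12), a target of BMP signals. Of 22 genes of the EGF family and its feedback 6 rose, against 10.0% of all genes. In that list 1 fell, or 2 without control replicate 1, against 11.0% of all genes. The falling one was the ligand gene EPGN (-0.73 ± 0.18), which was not called without irradiated replicate 2 (-0.53, adjusted p = 0.0627). NRG1, a ligand of ERBB3 and ERBB4, was at 9.38, 9.29 and 9.08 in irradiated cells, against 8.08, 8.16 and 8.25 in control cells, 2.12-fold higher (adjusted p = 4.13e-12). The receptor gene EGFR was at 10.07, 10.20 and 9.88 in irradiated cells, against 9.38, 9.44 and 9.52 in control cells. In TGFB2, NRG1 and EGFR the groups were separate. EGF rose by 0.52 ± 0.10. TXNIP, which blocks glucose uptake and thioredoxin, was at 10.86, 10.62 and 10.70 in irradiated cells, against 9.49, 9.43 and 9.50 in control cells, and DGKA, a diacylglycerol kinase, at 8.95, 9.05 and 9.16 in irradiated cells, against 7.68, 7.63 and 7.69 in control cells. AHR, the receptor of dioxin-like compounds, rose by 0.65 ± 0.08.

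Lysosome genes rose in 12 of 41 cases (10.0% of all genes rose) and fell in 3, with a median of 0.11. The proton pump gene ATP6V1B2 was at 10.57, 10.47 and 10.57 in irradiated cells, against 10.03, 9.95 and 10.06 in control cells. The sphingomyelinase gene SMPD1, the glucosidase gene GAA and the cathepsin gene CTSL rose by 0.51 ± 0.11, 0.42 ± 0.08 and 0.32 ± 0.06. In the autophagy list, WIPI1, a reader of the growing autophagosome membrane, was at 9.43, 9.52 and 9.50 in irradiated cells, against 8.96, 8.89 and 9.06 in control cells. The groups did not overlap for WIPI1 or ATP6V1B2. Counts in the autophagy list, whose median was 0.02, were small and moved with single arrays, with 6 of 32 rising, 3 without irradiated replicate 1 or control replicate 1, and 2 without irradiated replicate 2.

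Several classes of short RNAs fell, and their medians were lower on irradiated replicates 1 and 2 than on replicate 3. Of 61 H/ACA small nucleolar RNAs, which guide pseudouridylation, 34 fell, where 11.0% of all genes fell. Of 115 C/D box RNAs, which guide ribose methylation, 38 fell and 2 rose. Cajal body RNAs fell in 10 of 16 cases, spliceosomal RNAs in 15 of 23 and vault RNAs in 3 of 3. SNORA23 was at 8.87, 8.62 and 9.40 in irradiated cells, against 10.90, 11.34 and 11.06 in control cells. VTRNA1-1 was at 2.91, 2.88 and 4.15 in irradiated cells, against 5.71, 6.33 and 6.00 in control cells, all below 6.84. Both had irradiated replicate 3 above replicates 1 and 2 but below the controls. Ribosomal protein genes fell in 17 of 38 cases, in 8 without irradiated replicate 2, and their medians on single irradiated arrays were -0.24, -0.30 and -0.07. RPS13 was at 10.87, 10.79 and 11.37 in irradiated cells, against 12.07, 11.96 and 12.08 in control cells. Oxidative phosphorylation subunits fell in 21 of 42 cases, with medians of -0.29, -0.33 and -0.15, and COX7B was at 7.27, 7.16 and 8.07 in irradiated cells, against 8.98, 8.61 and 8.55 in control cells. RPS13 and COX7B did not overlap between groups. In the cells irradiated with nicotine, where 6.66% of all genes fell, 0 ribosomal and 2 oxidative phosphorylation genes fell, and with smoke extract, where 9.96% fell, 0 and 6. The counts of falls among small RNAs there were 21 and 8 H/ACA RNAs, 4 and 0 Cajal body RNAs and 4 and 1 spliceosomal RNAs with nicotine and smoke extract. A direct test of the difference in radiation effect called 0 of 18417 genes with nicotine, so the smaller counts there do not show a difference. With extract it called 4 ribosomal, 1 oxidative phosphorylation, 7 H/ACA, 4 Cajal body and 2 spliceosomal genes higher, against 0.733% of all genes. RNA quality values per sample were not used here, and the part of RNA length or recovery in these falls was not tested.

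**Figure D3:**
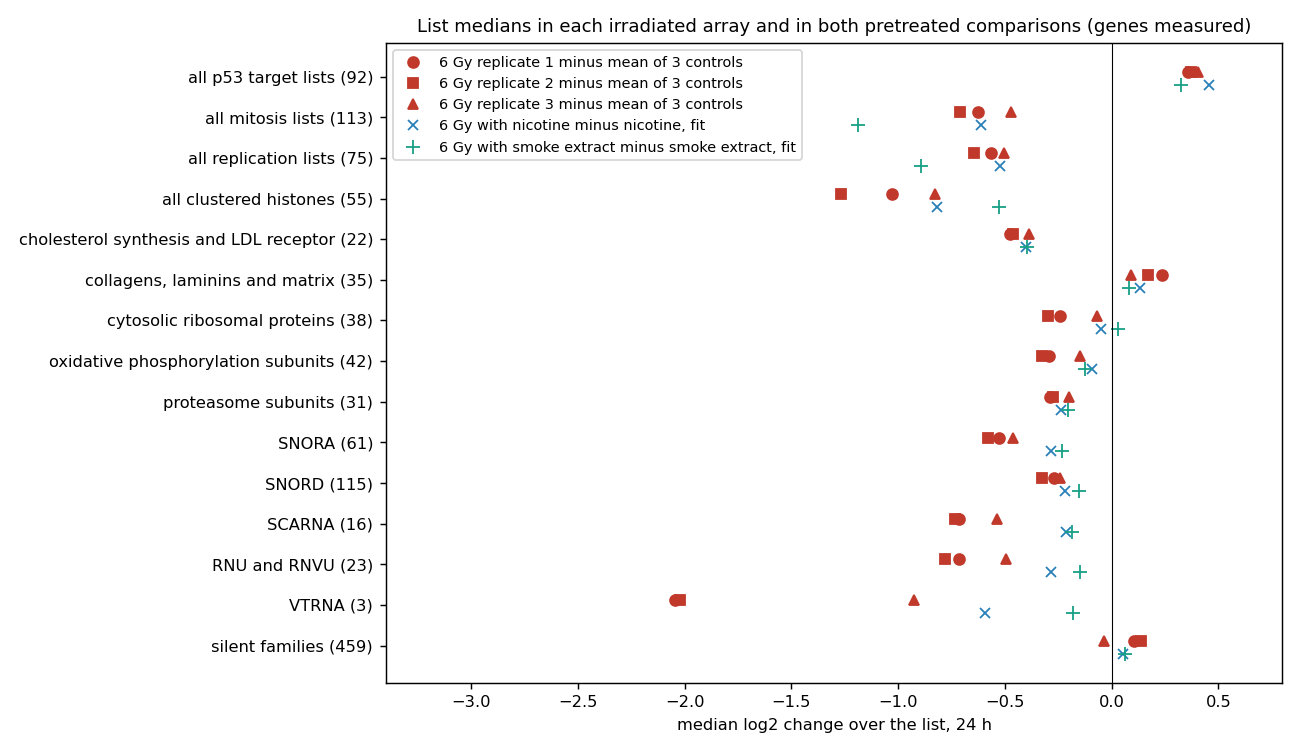
Median log2 change over each list for irradiated replicates 1 to 3, each minus the mean of the 3 controls (red circles, squares and triangles), and from the fits with nicotine (blue crosses) and smoke extract (green plus signs). For p53 targets and cholesterol synthesis the 5 symbols lie close together, for mitosis the smoke extract symbol lies far to the left at -1.19, and for ribosomal proteins and small RNA classes irradiated replicates 1 and 2 lie left of the other symbols.

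Proteasome subunits fell in 16 of 31 cases, such as PSMA5 (-0.68 ± 0.12) and PSMB6 (-0.61 ± 0.10), where 11.0% of all genes fell. With nicotine and smoke extract 12 and 10 of them fell, against 6.66% and 9.96% of all genes. Ribosome biogenesis genes fell in 16 of 34, with NOP10, a core protein of H/ACA particles, at 8.80, 8.70 and 8.95 in irradiated cells, against 10.16, 10.16 and 10.20 in control cells. Nuclear transport and splicing genes fell in 22 of 31 and 0 rose. RANBP1, which helps RAN release cargo, fell by 0.78 ± 0.10, NUP85, a nuclear pore subunit, by 0.68 ± 0.08 and SNRPD1, a ring protein of spliceosomal particles, by 1.17 ± 0.18. Heat shock proteins and co-chaperones fell in 17 of 34, and in 11 without irradiated replicate 2. Glycolysis and hypoxia genes fell in 12 of 29, led by ALDOC (-0.71 ± 0.09) and HK2 (-0.49 ± 0.08). In that list 1 rose, against 10.0% of all genes.

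Other stress pathways showed counts in both directions or few calls. Interferon and antigen presentation genes had 3 rises and 4 falls among 34, against 10.0% and 11.0% of all genes. The falls numbered 2 without control replicate 1 or irradiated replicate 2. RIGI, a sensor of viral RNA, rose by 0.53 ± 0.12 and TAP2, a peptide transporter subunit, fell by 0.55 ± 0.08. Of 32 genes of ATF4 and the unfolded protein response 6 rose, among them NUPR1 (0.66 ± 0.11) and PPP1R15A (0.56 ± 0.12), and 8 fell, led by the serine synthesis genes PHGDH (-0.61 ± 0.13) and PSAT1 (-0.47 ± 0.10). MicroRNA genes were called in 9 rising and 4 falling cases of 189, and the rises numbered 1 without irradiated replicate 2, 4 without control replicate 3, and 5 without control replicate 1 or 2. The silent families were called in 9 rising and 1 falling cases of 459.

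The change at 24 h differed from that at 2 h in 2396 genes (13.0% of 18417, limma interaction of dose and time), 1117 upward (6.07%) and 1279 downward (6.94%). After quantile scaling these were 1455 upward and 1311 downward, and with the silent families as a covariate 1828 and 1532. At 2 h itself 56 genes were called (0.304%). The p53 targets were already rising at 2 h in 16 of 92 cases, with 0.136% of all genes higher then. TP53INP1 went further with time, at 1.07 ± 0.14 at 2 h and 1.93 ± 0.14 at 24 h (difference 0.86 ± 0.20, adjusted p = 0.00200). PLK3 and AEN, an apoptotic nuclease gene, had smaller changes at 24 h. PLK3 was at 1.07 ± 0.09 at 2 h and 0.56 ± 0.09 at 24 h (difference -0.51 ± 0.13, adjusted p = 0.00468), and AEN at 0.82 ± 0.07 and 0.46 ± 0.07 (difference -0.36 ± 0.11, adjusted p = 0.0165). For CDKN1A the changes of 1.26 ± 0.16 at 2 h and 0.77 ± 0.16 at 24 h gave a difference of -0.49 ± 0.22 that did not pass (adjusted p = 0.157). WEE1, the kinase that holds CDK1 inactive, fell at 2 h (-1.07 ± 0.16) and was not called at 24 h (-0.23 ± 0.16, difference 0.84 ± 0.23, adjusted p = 0.00995). CCNF, a cyclin that acts as a ubiquitin ligase subunit, was equally low at both times (-0.96 ± 0.09 and -0.96 ± 0.09).

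Later arrivals had no call at 2 h. SULF2 changed by -0.06 ± 0.07 at 2 h and 1.81 ± 0.07 at 24 h (difference 1.87 ± 0.10, adjusted p = 3.85e-18), ACTA2 by 0.08 ± 0.09 and 1.60 ± 0.09, DSC3 by 0.10 ± 0.13 and 1.57 ± 0.13, and MYPN, a sarcomere protein gene, by -0.43 ± 0.11 and 1.02 ± 0.11. H2BC14 changed by -0.39 ± 0.10 at 2 h and -2.97 ± 0.10 at 24 h (difference -2.58 ± 0.13), H3C12 by -0.43 ± 0.13 and -3.02 ± 0.13 (difference -2.59 ± 0.18) and CCNE2 by 0.28 ± 0.19 and -1.91 ± 0.19 (difference -2.19 ± 0.26). All these differences passed the test. In the lists, 51 of 75 replication genes, 54 of 113 mitosis genes, 29 of 55 clustered histones and 14 of 22 cholesterol genes had a lower change at 24 h than at 2 h, and 15 of 35 matrix genes had a higher one. A lower change was called for 6.94% of all genes and a higher one for 6.07%.

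**Figure D4:**
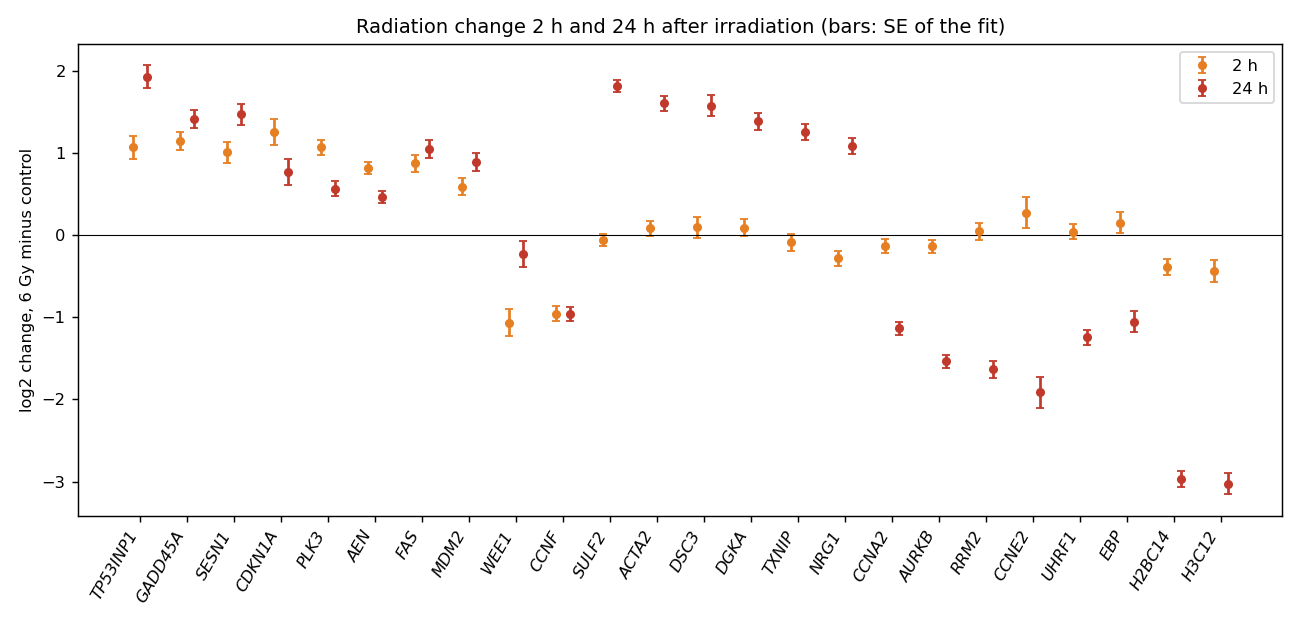
Log2 change of 24 genes 2 h (orange) and 24 h (red) after irradiation, irradiated minus control cells of the same time, with bars for the SE of the fit. The p53 targets on the left are above 0 at both times, WEE1 was called at 2 h only, and SULF2, ACTA2 and DSC3 on one side and RRM2, H2BC14 and H3C12 on the other depart from 0 by more than 1 log2 unit at 24 h only.

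Cells irradiated with nicotine or smoke extract were compared with cells given the same agent without radiation, on arrays not shared with the comparison above. With nicotine 2810 genes were called (15.3%), 2118 of them also called alone and in the same direction (54.7% of calls alone, 75.4% of those with nicotine) and 0 in opposite directions. The log2 changes correlated at r = 0.81 across 18417 genes, which are not independent replicates. The test of the difference between both radiation effects called 0 genes by limma, 798 genes had an unadjusted p under 0.05 (4.33%), and the smallest adjusted p was 0.998. With smoke extract 2611 genes were called (14.2%), 777 upward (4.22%) and 1834 downward (9.96%), 1435 of them shared in direction with radiation alone (37.0% of calls alone, 55.0% of those with extract) and 8 opposite. The upward and downward calls with extract were 1259 and 1547 after quantile scaling, and 1341 and 2062 with the silent families as a covariate. Called in the same direction in all 3 settings were 1163 genes, 428 higher and 735 lower. TP53INP1, SESN1, FAS and MDM2 among the rises and AURKB, RRM2, H2BC14 and EBP among the falls were called in all 3.

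The effect of radiation differed between cells with and without smoke extract in 474 genes (2.57%), 135 higher (0.733%) and 339 lower (1.84%) with the extract. Mitosis genes made up part of the lower ones, 54 of 113, with a median radiation change of -1.19 with extract and -0.60 without. KIF20A changed by -2.20 ± 0.08 with extract and -0.75 ± 0.08 without (difference -1.45 ± 0.12, adjusted p = 1.57e-11). CDC6, which loads the MCM ring, changed by -1.96 ± 0.10 and -0.71 ± 0.10 (difference -1.24 ± 0.14), MCM10 by -2.01 ± 0.10 and -0.85 ± 0.10 (difference -1.16 ± 0.14), and TOP2A by -1.40 ± 0.07 and -0.27 ± 0.07 (difference -1.13 ± 0.10). The difference was positive for VTRNA1-1 (difference 2.53 ± 0.56), SNORA20 (difference 1.92 ± 0.45), SNORA23 (difference 1.57 ± 0.34) and the histone gene H2AC25 (difference 1.61 ± 0.27). Of the 92 p53 targets 0 were higher and 3 lower with the extract. The count of 474 moved with single arrays. It was 1498 without irradiated replicate 3, 219 and 212 without irradiated replicates 1 and 2, 288 and 259 without control replicates 1 and 2, and 296 and 243 without smoke extract replicates 1 and 3.

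**Figure D5:**
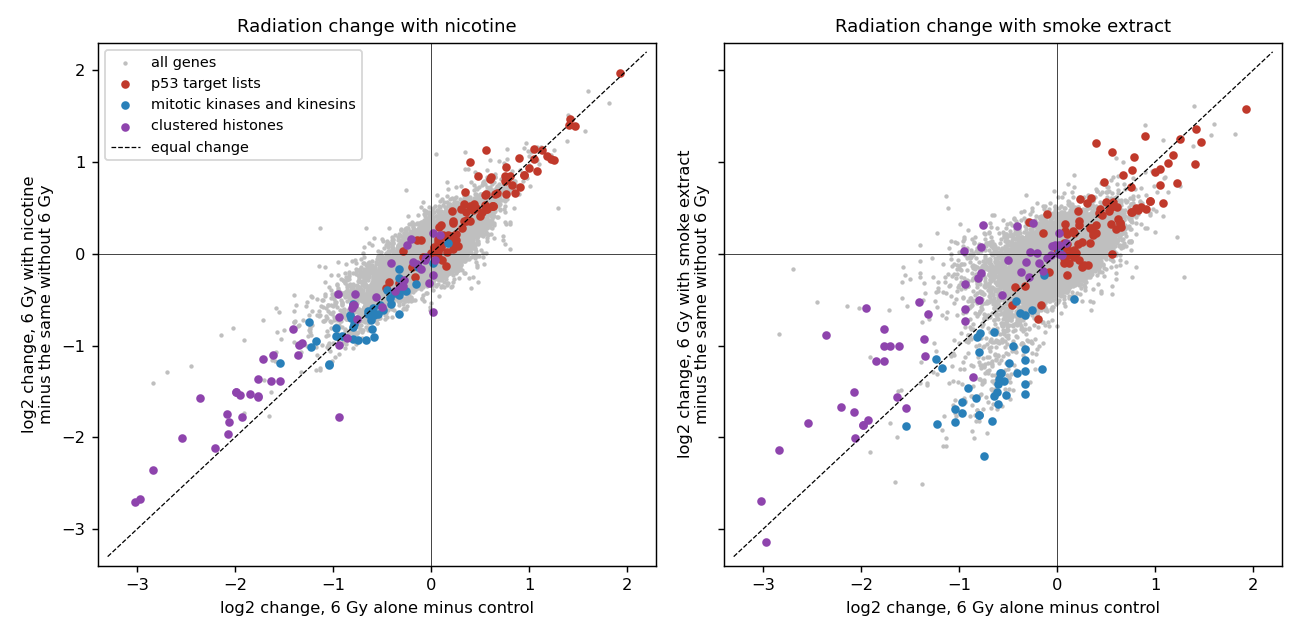
Log2 radiation change at 24 h with nicotine (left) and with smoke extract (right) on the vertical axis against the change in cells given radiation alone on the horizontal axis, for 18417 genes (grey). Red dots are p53 targets, blue dots mitotic kinases and kinesins, purple dots clustered histones, and the dashed line marks equal change. With nicotine the blue dots lie along the line, and with smoke extract most lie below it.

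Set against cells 24 h after 1 uM cisplatin, irradiated cells differed in 2403 genes (13.0%), 947 higher (5.14%) and 1456 lower (7.91%). That excess of lower calls was lost under other scalings, with 1351 higher and 1297 lower after quantile scaling and 1175 and 1072 with the silent families as a covariate. The doses of radiation and drug have no common scale. SULF2 averaged 8.78 ± 0.10 in irradiated and 7.32 ± 0.04 in cisplatin-treated cells (SD, n = 3 each). TP53INP1 averaged 8.60 ± 0.20 in irradiated and 7.27 ± 0.25 in cisplatin-treated cells, a difference of 1.33 ± 0.14. H2BC14 averaged 9.23 ± 0.06 in irradiated and 11.79 ± 0.03 in cisplatin-treated cells, a difference of -2.55 ± 0.10. Mitosis genes were lower in irradiated cells in 97 of 113 cases, replication genes in 61 of 75 and clustered histones in 31 of 55, while 41 of 92 p53 targets were higher. The count of 2403 was 1404 without cisplatin replicate 3, and 1524 and 1432 without irradiated replicates 1 and 2.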

How the data were processed

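RNA from 54 cultures was read on 1 array each. The deposited series matrix holds log2 values made by the authors with Affymetrix Power Tools 1.15.0, per the submitters' processing notes. The log2 base was inferred from the values, and the summarisation and background steps are not given in the sources used here. Of 33297 rows 19460 carried exactly 1 gene symbol in GEO's platform annotation, 1754 carried several and 12083 none. The row with the highest mean was kept for each of 18417 symbols. No counts exist for arrays, so the 3 arrays per group limit the precision.

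limma 3.58.1 (R 4.3.3) was fitted to 18 group means over all 54 arrays (36 residual degrees of freedom) with an intensity trend, and p-values were adjusted by Benjamini-Hochberg over 18417 genes, with calls at 0.05. SEs are those of this fit. The procedure was also run on simulated arrays with independent noise and planted changes. These held no outlying array and no shift of scale between arrays, so the run does not bear on either. Replicate numbers were not used to pair the arrays in this fit. Deviations of same-numbered arrays from their group means correlated at -0.09, 0.18 and 0.05. Those of differently numbered arrays correlated at -0.25 to 0.19. With 3 arrays in each group such values cannot exclude a pairing.

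Genes named are the 20 largest called changes each way whose groups do not overlap, up to 8 called members each way of each list or small RNA class, all members of lists of up to 20, a few fixed genes, and the 10 largest each way in the other comparisons. Members and lists were chosen with earlier results of these data known, and the genes printed were picked within the rule after their values were seen, with preference for calls that held under every alternative run. Array scaling, background, row choice, array weights, the spread's samples and single arrays were varied. Promoters came from RefSeq (GRCh38.p14).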

Additional observations from a re-analysis of the deposited data

Results flagged for a closer look

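The radiation effect differed by a test of the difference itself in 2396 genes between 24 h and 2 h, and in 474 genes between cells with and without smoke extract. Each value here is such a difference on the log2 scale, the change at 24 h minus that at 2 h, or the change with extract minus that without, and each passed at adjusted p under 0.05 in limma.

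Between times, SULF2 differed by 1.87, ACTA2 by 1.52, DSC3 by 1.48, MYPN by 1.45, TP53INP1 by 0.86 and WEE1 by 0.84. The differences were negative for VTRNA1-1 (-3.05), the spliceosomal RNA gene RNU5D-1 (-2.85), H3C12 (-2.59), H2BC14 (-2.58), CCNE2 (-2.19), PLK3 (-0.51) and AEN (-0.36). The SE was 0.56 for VTRNA1-1 and 0.80 for RNU5D-1. At 24 h VTRNA1-1 lay below 6.84 in both groups, H3C12 and CCNE2 in irradiated cells, and DSC3 and TP53INP1 in control cells.

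Between cells with and without extract, VTRNA1-1 differed by 2.53, SNORA20 by 1.92, H2AC25 by 1.61 and SNORA23 by 1.57. The differences were negative for genes of division, namely KIF20A (-1.45), CDC6 (-1.24), the checkpoint kinase gene TTK (-1.20), MCM10 (-1.16), TOP2A (-1.13), the mitotic transcription factor gene FOXM1 (-1.10), CCNA2 (-0.96) and MKI67 (-0.93).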

How the results depend on the processing

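Of the 687 genes the naming rule allows, 533 were called at 24 h, and 126 of these lost the call under at least 1 alternative, while 407 kept it under all that were run. The genes printed were picked among the 687 after their values and these alternatives had been seen. Of the 190 called ones 188 come from the 407, so their stability follows from that choice, and 2 (EPGN and LMNA) do not. One gene that is not described, SLC1A5, turned from -0.33 to 0.0312 (adjusted p = 0.896) when a gene's rows were averaged. The count of 3875 calls was 6676 with array weights, whose estimation gave a convergence warning, and 5992 for the mean over the 3 pretreatments. Array weights also gave 6040 calls for the difference between times, 8108 with nicotine, 8941 with smoke extract, 203 for the difference with nicotine, 4668 for that with extract and 10065 against cisplatin. The 474 calls for the difference with extract were 777 after quantile scaling, 246 after median centring, 1216 with silent families as a covariate, 819 among genes of higher level and 152 from the compared arrays alone. Those arrays alone gave 738 calls with nicotine, 1226 with extract and 816 against cisplatin. The causes were not tested. Leaving out single arrays gave 2810 to 4250 calls for radiation alone, 1700 to 2858 between times, 1959 to 3578 with nicotine, 1920 to 2894 with extract, 212 to 1498 for the difference with extract, 1404 to 3525 against cisplatin, and 0 for the difference with nicotine. With the replicate number as a block the count was 3949. Levels near 6.84 and 3 arrays a group limit what can be called.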
